A study of Mus musculus with 16 samples.

Results

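Primary hippocampal neurons carrying an shRNA against Dnmt3a1 were compared with neurons carrying a control shRNA, both left unstimulated. The 2 groups were the 4 Dnmt3a1-shRNA2 and the 4 Control-shRNA libraries labelled as baseline, 8 of the 16 libraries of the series. All cultures came from newborn C57BL/6N mice and were infected with recombinant adeno-associated virus (rAAV), in which a U6 promoter drove the shRNA and a chicken β-actin promoter drove GFP. Both groups therefore carried the virus, an shRNA and GFP, and neither received bicuculline, the GABA-A receptor blocker given to the other 8 libraries. The knockdown rested on 1 shRNA construct, and the 4 libraries of a group were independent neuronal preparations. Values per gene do not separate the 2 Dnmt3a isoforms, Dnmt3a1 and Dnmt3a2.

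Dnmt3a is a de novo DNA methyltransferase: it places methyl groups on cytosines that were unmethylated, whereas Dnmt1 copies existing marks after replication. Dnmt3a1 is the long isoform, transcribed from the upstream promoter, and Dnmt3a2 is a shorter one from an internal promoter. In postmitotic neurons Dnmt3a deposits CpG and non-CpG methylation, which is read by methyl-CpG-binding proteins. An shRNA is processed into a small RNA that directs the silencing machinery to matching transcripts.

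The depth was even, at 29060524 to 29586355 estimated counts per library. Mitochondrial transcripts took 2.73 to 5.99% of the counts. Levels are given as CPM, counts scaled by TMM to a common library size. The TMM scaling factors were 1.04 to 1.12 in Control-shRNA and 0.96 to 1.08 in Dnmt3a1-shRNA2. Neuronal markers such as Snap25 and Map2 were abundant in both groups, at 911 ± 61.9 and 1538 ± 145 CPM in Control-shRNA (SD, n = 4) and 940 ± 46.1 and 1719 ± 311 CPM in Dnmt3a1-shRNA2 (SD, n = 4).

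The targeted gene was lower in every knockdown library. Dnmt3a (ENSMUSG00000020661.15, GRCm38 chr12:3806007-3914443, plus strand) stood at 311, 293, 321 and 324 CPM in Control-shRNA. In Dnmt3a1-shRNA2 it stood at 45.5, 39.4, 45.1 and 48.1 CPM. The groups were far apart, and the knockdown left 14.2% of the control level. The log2 fold change was −2.81 (standard error 0.06; edgeR quasi-likelihood adjusted p = 8.9e-15). An exact two-sided permutation test of the 8 values, taken as unpaired, gave p = 0.0286, the smallest that 4 against 4 allows. Dnmt1, the maintenance enzyme, was at 53.8 to 58.96 CPM in Control-shRNA and 54.5 to 61.7 CPM in Dnmt3a1-shRNA2 (exact permutation p = 0.743). Dnmt3b, the other de novo enzyme, lay at 0.324 to 0.494 and 0.318 to 0.572 CPM (exact permutation p = 0.971). A difference in these 2 genes was not detectable, and for Dnmt3b the low level sets the limit.

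Across the transcriptome, falls outnumbered rises. Of 17222 genes tested, 1004 were called as differentially expressed genes (DEGs), with an adjusted p under 0.05 and a log2 fold change above 0.5 or below −0.5, which is 5.83% of all genes. Of these, 303 were higher in Dnmt3a1-shRNA2 (1.76%) and 701 were lower (4.07%), so 30.2% of the calls were rises. The median change was 0.62 on the log2 scale among the higher genes and −0.73 among the lower ones. A change of more than 1 was reached by 30 of the higher and 145 of the lower genes, and a change of more than 2 by 4 and 13. The groups did not overlap in 904 of the 1004 called genes, against 19.9% of all genes tested.

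The split between rises and falls moved with the scaling. With library sizes in place of TMM, 159 genes were higher and 960 lower, and the median of all genes moved from 0.01 to −0.07. On log2(TPM + 1), 75 were higher and 748 lower. The call of a single gene also depended on the set of libraries: 143 of the 303 higher and 429 of the 701 lower genes were called in each of the 8 fits that left out 1 library.

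**Figure D1:**
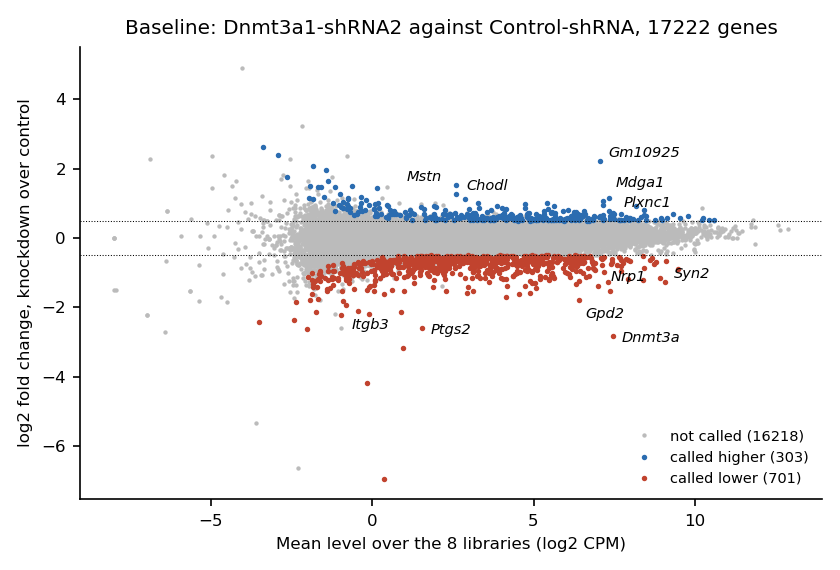
Change of each of the 17222 genes tested (vertical axis, log2 fold change of Dnmt3a1-shRNA2 over Control-shRNA in baseline) against its mean level over the 8 libraries (horizontal axis, log2 CPM). Blue points are the 303 genes called higher, red points the 701 called lower, grey points the rest, and dotted lines mark 0.5. Dnmt3a stands alone among the abundant genes at −2.81. The abundant gene at 2.22 is Gm10925, an annotated pseudogene whose reads could be shared with near-identical sequence, so its value is uncertain; it was named after its value was seen.

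Beside Dnmt3a, the largest falls among called protein-coding and long non-coding genes of at least 1 CPM without overlap were in genes of several functions. Gpd2, the mitochondrial glycerol-3-phosphate dehydrogenase, was at 136, 125, 134 and 137 CPM in Control-shRNA and at 39.3, 34.7, 41.7 and 40.0 CPM in Dnmt3a1-shRNA2. Its log2 fold change was −1.77 (standard error 0.06), and the spread within either group was small beside the distance between them. Itgb3, the integrin β3 subunit, had a low level in all libraries, 2.53 to 3.67 CPM in Control-shRNA and 0.589 to 0.774 CPM in Dnmt3a1-shRNA2. Its log2 fold change was −2.14 (standard error 0.18).

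Ptgs2, the activity-induced cyclooxygenase, was at 5.07, 2.22, 6.30 and 6.45 CPM in Control-shRNA and at 0.738, 0.654, 1.30 and 0.606 CPM in Dnmt3a1-shRNA2. Control replicate 2 was the lowest of its group yet stayed above all knockdown libraries, and the log2 fold change was −2.59 (standard error 0.45). Further falls were those of the phosphatase Ublcp1 at −1.69, the RNA polymerase II subunit Polr2g at −1.62, Ankrd63 at −1.61 and Hapln4, a link protein of the perineuronal net, at −1.54. The extracellular matrix protein Fbln5 followed at −1.53. The non-coding A330084C13Rik had a log2 fold change of −1.59. Nnt is given as uncertain, because 2 tested identifiers carry the symbol. It had 1 knockdown library at 0 CPM and a log2 fold change of −3.18 (standard error 0.81), and voom with limma did not call it.

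The most abundant genes called lower were Syn2, Marcksl1, Kif1b, Dlg4, Mapre2 and Pgm2l1. Syn2, which coats synaptic vesicles, was at 817, 738, 728 and 780 CPM in Control-shRNA and at 348, 298, 304 and 324 CPM in Dnmt3a1-shRNA2, a log2 fold change of −1.26 (standard error 0.07). Marcksl1, an actin-regulating protein of the MARCKS family, was at 721, 659, 584 and 698 CPM against 307, 327, 268 and 292 CPM, a log2 fold change of −1.16 (standard error 0.09). Neither gene had overlapping groups. Kif1b, a motor of axonal transport, had a log2 fold change of −0.91 and Dlg4, the postsynaptic scaffold PSD-95, of −0.67. Mapre2, which binds microtubule ends, stood at −0.68 and Pgm2l1, a sugar phosphate enzyme, at −0.74.

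Among called protein-coding and long non-coding genes of at least 1 CPM without overlap, the largest rises were smaller than the largest falls. Absence of overlap was required by this choice. Mstn (myostatin), a secreted growth inhibitor of the TGF-beta family, was at 2.80, 2.84, 3.26 and 3.73 CPM in Control-shRNA and at 8.12, 8.53, 9.53 and 10.1 CPM in Dnmt3a1-shRNA2. The log2 fold change was 1.52 (standard error 0.15). Plxnc1, a semaphorin receptor, rose from 86.3, 90.5, 105 and 81.9 CPM to 185, 182, 201 and 197 CPM, a log2 fold change of 1.07 (standard error 0.10). Mdga1, a suppressor of neuroligin-neurexin contacts, was at 126, 95.6, 73.6 and 107 CPM against 313, 188, 137 and 261 CPM. The lowest knockdown library of Mdga1 stood just above the highest control library, and its log2 fold change was 1.16 (standard error 0.24).

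Chodl, a membrane lectin, had a log2 fold change of 1.26 and Ly6g6e, a member of the Ly6 family, of 1.43. Hrk, a pro-apoptotic member of the Bcl2 family, was at 81.9 to 116 CPM in Control-shRNA and at 175 to 200 CPM in Dnmt3a1-shRNA2, a log2 fold change of 0.96 with a standard error of 0.14. The protease Adamts18 stood at 1.11, the membrane skeleton protein Epb41 at 1.0, Disp3 at 0.99 and the secreted glycoprotein Olfm4 at 0.99. Sostdc1, a secreted BMP antagonist, and Ecm2, a matrix protein, were at 1.0 and 0.98. Sostdc1 lost its call without Control-shRNA replicate 3 or Dnmt3a1-shRNA2 replicate 1. Ecm2 lost it without replicates 3 or 4 of Control-shRNA or replicates 1 or 4 of Dnmt3a1-shRNA2.

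The most abundant genes called higher were close to the fold threshold. The β-tubulins Tubb5 and Tubb3 had log2 fold changes of 0.52 and 0.51, the axonal guidance effector Dpysl3 of 0.51, the neuronal protein Ncdn of 0.57 and the proteoglycan Sdc3 of 0.58. All 5 lost their calls with library sizes alone. With the replicate block Dpysl3 was at 0.498, just under the fold limit. Timp2, a metalloproteinase inhibitor, kept its call with that scaling; it was at 650 to 751 CPM in Control-shRNA and 1017 to 1125 CPM in Dnmt3a1-shRNA2, a log2 fold change of 0.65 (standard error 0.06).

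**Figure D2:**
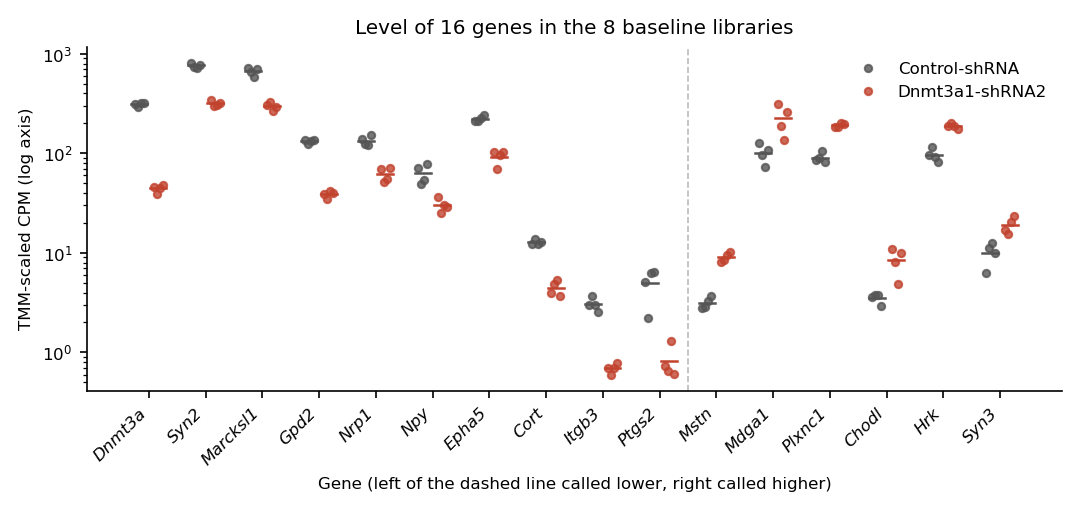
Level of 16 genes in each of the 8 baseline libraries (vertical log axis, TMM-scaled CPM; grey points are Control-shRNA, red points Dnmt3a1-shRNA2, bars are means of 4). The 10 genes left of the dashed line were called lower and the 6 right of it higher, and in none of the 16 do the groups overlap. For those named for the size of their change, absence of overlap was a condition of the choice.

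One short sequence of the 3′ untranslated region (UTR) was more frequent among the genes called lower than among all genes. The annotated 3′ UTRs of GENCODE release M21 were searched on the transcript strand for each of the 16384 possible heptamers, in the 14267 of 14516 protein-coding genes tested that had a 3′ UTR of at least 50 bases. GAAAGGA had the largest excess among the lower genes: it was present in 272 of 607 (44.8%), in 18.8% of all 14267 and in 35 of 254 higher genes (13.8%). The same 7 letters are part of the target sequence that the study's methods give for Dnmt3a1-shRNA2. The heptamer was picked from these data for its rank, so no test is given. The second, AAAGGAA, which overlaps it by 6 letters, was in 49.8% of the lower genes and 26.4% of all.

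The windows below show the first match in genes named above and in Canx, a chaperone described later, with the heptamer in capitals, 5′ to 3′ on the transcript strand, at GRCm38 positions within 1 exon each. Epb41 is shown because it held the heptamer and was called higher. In the Dnmt3a window, the letters next to the heptamer differ from those in the Dnmt3a1-shRNA2 sequence. That 3′ UTR window is thus not the full target of the shRNA.
Dnmt3a (chr12:3912185-3912213, plus strand): gaagtccgaagGAAAGGActcggttgatc
Gpd2 (chr2:57367612-57367640, plus strand): acaaaatcaaaGAAAGGAaagggataagc
Ublcp1 (chr11:44455313-44455341, minus strand): aatggaaaaagGAAAGGAaaatgaaaaaa
Ptgs2 (chr1:150105950-150105978, plus strand): tacctgaaactGAAAGGAaatcagcattc
Syn2 (chr6:115274375-115274403, plus strand): agaagagaaaaGAAAGGAaggcagggagg
Marcksl1 (chr4:129515320-129515348, plus strand): tcctgtgcccaGAAAGGAaggggcttgtt
Canx (chr11:50296057-50296085, minus strand): ctgtttctgtaGAAAGGAaaacatttaac
Epb41 (chr4:131950088-131950116, minus strand): aatgaaaagcaGAAAGGAaaactgggtgg

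Kif1b held 4 matches and Gpd2 and Ublcp1 2 each. Itgb3, Polr2g, Nrp1, Npy and Crhbp held none. Of the called genes that the naming rule picked and that had a 3′ UTR, 37 of 69 lower and 9 of 47 higher ones held it, the latter including Epb41, Olfm4, Camk2d, Hcn4, Sema6a and Cacng4, which had 5 matches. The share of genes called lower went up with the number of matches, from 2.89% of 11578 genes with none to 8.83% of 2119 with 1, 13.2% of 438 with 2 and 20.5% of 132 with 3 or more. The share called higher went the other way, from 1.89 to 1.37, 1.14 and 0.758%. The median log2 fold change went from 0.02 without a match to −0.06, −0.08 and −0.12.

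A longer 3′ UTR offers more room for any heptamer, so the shares were set within quintiles of 3′ UTR length. From the shortest to the longest quintile, 16.4, 14.3, 13.1, 9.90 and 8.15% of the genes with GAAAGGA were called lower, against 3.08, 3.31, 2.95, 2.62 and 2.17% of the genes without it. The 3′ UTRs of the lower genes had a median length of 1354 bases and those of the higher genes 1798, against 1246 in all. Among the 25 genes with the largest falls, 14 held the heptamer. A match describes the letters of the annotated transcript, and its part in the changes was not tested. The other 335 lower genes with a 3′ UTR held no match.

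**Figure D3:**
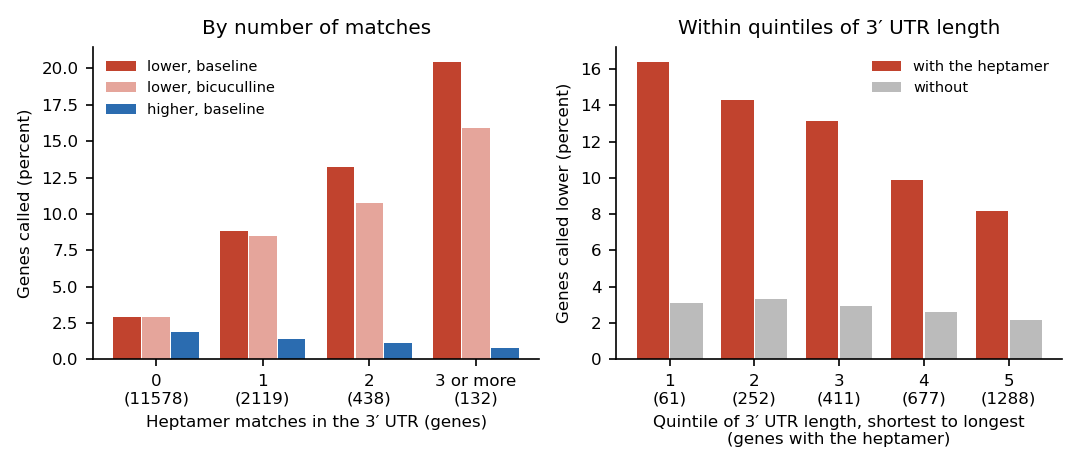
Left, percent of protein-coding genes called lower in baseline, lower with bicuculline and higher in baseline (vertical axis) by the number of heptamer matches in the 3′ UTR, with the number of genes in brackets. Right, percent called lower in baseline in quintiles of 3′ UTR length, for genes with (red) and without (grey) the heptamer. Genes with the heptamer were called lower more often in all 5 quintiles, from 16.4% against 3.08% in the shortest to 8.15% against 2.17% in the longest.

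Neuropeptides, peptide transmitters of which many are made by interneurons, held several of the larger falls. Of 27 neuropeptide genes tested, 8 were lower and none higher, against 4.07 and 1.76% of all genes, yet the median of the list was −0.06, near the 0.01 of all genes. Cort (cortistatin) was at 12.2, 13.8, 12.3 and 12.8 CPM in Control-shRNA and at 3.94, 4.91, 5.33 and 3.67 CPM in Dnmt3a1-shRNA2, a log2 fold change of −1.52 (standard error 0.13). Npy (neuropeptide Y) was at 71.1, 48.8, 53.8 and 78.2 CPM against 36.7, 25.1, 30.6 and 28.9 CPM, a log2 fold change of −1.05 with a standard error of 0.18. The groups were apart for both genes. Vgf, a secreted neuronal precursor protein, was at 489, 393, 493 and 508 CPM against 142, 244, 303 and 130 CPM, with a wide spread in the knockdown and a log2 fold change of −1.20 (standard error 0.20).

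Pthlh fell by 1.40 on the log2 scale, Prok2 by 0.81, Pnoc by 0.69 and Tac1, the substance P precursor, by 0.63. Sst (somatostatin) was at 361 to 433 CPM in Control-shRNA and 223 to 320 CPM in Dnmt3a1-shRNA2 (log2 fold change −0.52), and it lost its call without Control-shRNA replicate 2 or Dnmt3a1-shRNA2 replicates 1 or 4. Only Tac1 among these 8 held GAAAGGA in its 3′ UTR, and it was the only holder among all 27 neuropeptide genes. Of 33 neuropeptide receptors and binding proteins, 4 were lower and 2 higher. Npbwr1, a neuropeptide B/W receptor, was at −1.41, Crhbp, which binds corticotropin-releasing hormone, at −1.28, Sstr3 at −0.74 and Oprd1 at −0.64. Mc4r and Tacr1 were at 0.69 and 0.62.

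Markers of GABAergic neurons were counted beside the peptides, and 3 of the 13, Npy, Sst and Vip, are in both lists. Of the 13 markers, 4 were called lower (Npy, Dlx5, Pvalb and Sst), none higher, and 11 had a negative log2 fold change, with a median of −0.31. The summed level was 2914 to 3282 TPM in Control-shRNA and 1921 to 2508 TPM in Dnmt3a1-shRNA2. Without the 3 shared genes, 2 of 10 were called lower, 9 had a negative value, the median was −0.21 and the summed level was 1200 to 1356 TPM against 813 to 1031 TPM. Among the defining genes, Gad1 was at 728 ± 94.0 against 544 ± 83.7 CPM (SD, n = 4), short of the fold threshold at a log2 fold change of −0.42. The vesicular transporter Slc32a1 was at 258 ± 14.2 against 237 ± 9.26 CPM, a log2 fold change of −0.12. The interneuron factor Lhx6 was at 105 ± 7.76 against 98.8 ± 6.70 CPM, a log2 fold change of −0.09, and neither was called. In these bulk samples, fewer cells of a type and less RNA per cell cannot be told apart, and the part of GABAergic cells in the peptide values was not tested. Pvalb was no longer called when any of 6 of the 8 libraries was left out.

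A list of genes taken as induced late by activity held as many falls as the neuropeptides, and Cort, Vgf and Sst are in both lists. Of 26 tested, 8 were called lower and 1 higher, with a median of −0.14. The lower ones were Ptgs2, Cort, Vgf, Rasgrp1 (−1.01), Bdnf (−0.74), the perineuronal net proteoglycan Acan (−0.74), Crem (−0.62) and Sst, and the higher one was Mstn. Bdnf, the neurotrophin, was at 78.2 ± 19.7 CPM in Control-shRNA and 46.8 ± 8.59 CPM in Dnmt3a1-shRNA2 (SD, n = 4), with overlapping groups. Of the 8 lower genes, Bdnf, Ptgs2, Crem and Rasgrp1 held the heptamer, and 6 of the 26 held it in all. Of 16 immediate early genes, Fos was called higher and Nr4a3 lower. Nr4a3 was at 232 to 340 CPM in Control-shRNA and 152 to 252 CPM in Dnmt3a1-shRNA2, with overlapping groups. Its log2 fold change was −0.63, and its call was lost in 4 of the 8 fits that left out 1 library. Fos was at 7.54, 8.77, 14.5 and 10.5 CPM against 14.9, 16.1, 19.2 and 11.7 CPM, a log2 fold change of 0.58 (adjusted p = 0.044), with overlapping groups, and leaving out any of 6 of the 8 libraries ended its call. Arc, at −0.39, and Npas4, at 0.61, were not called.

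The genes that the study singled out were picked from the knockdown comparisons of these same libraries, in baseline, with bicuculline or both. Their baseline values are thus no independent evidence of a direction. The paper also measured them by qRT-PCR in separate cultures given bicuculline. There it reports Alkal2, Cacng5 and Nrp1 as reduced with each of its Dnmt3a1 shRNAs, whereas Crhbp, Npy and Trpc6 did not reach significance with both. Nrp1, a co-receptor for class 3 semaphorins and VEGF, was at 138, 124, 123 and 151 CPM in Control-shRNA and at 70.5, 51.1, 55.7 and 70.6 CPM in Dnmt3a1-shRNA2. The log2 fold change was −1.11 (standard error 0.10), without overlap. Alkal2, a ligand of the receptors Alk and Ltk, was at 12.7, 7.69, 11.8 and 14.01 CPM against 7.03, 5.003, 7.05 and 4.51 CPM, a log2 fold change of −0.97 (standard error 0.22). Ltk, one of its receptors, was also lower, at −1.16 (standard error 0.15). The AMPA receptor auxiliary subunit Cacng5 had a log2 fold change of −0.53 and the channel Trpc6 of −0.70, with adjusted p = 0.10 and 0.060. With the replicate number as a block, Cacng5 (−0.55) and Trpc6 (−0.72) were called lower too, with adjusted p = 0.0020 and 0.0050.

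Guidance molecules moved in both directions. Of 29 semaphorins, plexins and neuropilins, Nrp1 and Sema4f (−0.85) were lower and Plxnc1, Sema4c (0.61) and Sema6a (0.53) higher. Among 39 Eph, Slit, Robo and netrin genes, 3 were lower and 4 higher. Epha5, an ephrin receptor, was at 213, 210, 225 and 243 CPM in Control-shRNA and at 103, 68.9, 96.3 and 103 CPM in Dnmt3a1-shRNA2, a log2 fold change of −1.26 with a standard error of 0.11. The netrin receptor Dcc was at −1.15 and the ligand Efna2 at −1.08. Epha5, Dcc and Efna2 all held GAAAGGA, and so did Sema6a, called higher, whereas Nrp1 and Sema4f did not. In all, 9 of the 39 and 8 of the 29 genes held it. On the other side stood Draxin at 0.83, the Dcc-related receptor Neo1 at 0.59, Efnb3 at 0.53 and Efnb1 at 0.51. Draxin lost its call without Control-shRNA replicates 1 or 4 or Dnmt3a1-shRNA2 replicate 4.

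In the growth factor list, 4 of 46 were lower (Ltk, Kdr, Alkal2 and Bdnf) and 5 higher, among them Hbegf at 0.73, Gfra2 at 0.64 and Fgfr2 at 0.55. Of 48 Wnt pathway genes, 4 were lower and 2 higher. The inhibitor Nkd2 was at −1.16 and the agonist Rspo1 at −1.04, and both kept their calls without any 1 library. Wnt9b and Wnt11, at −1.11 and −1.02 with under 1 CPM in each library, did not. Wnt7b was higher, at 0.58. Of 48 TGF-beta, activin and BMP genes, Mstn alone was called.

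Calls among glutamate receptor genes rested on single genes. Of 19 AMPA receptor subunits and auxiliary proteins, Cacng4 (0.52) and Shisa6 (0.51) were higher, which is 10.5%, against 1.76% of all genes. By the adjusted p alone, 6 of the 19 were higher and none lower, against 1398 higher and 1411 lower of the 17222 genes tested. In the list of 16 NMDA, kainate and delta receptor genes, Grin3a (0.62) was higher. Cacng4 and Shisa6 were not called with library sizes alone, and neither kept its call in each fit without 1 library. Among 23 GABA genes, the receptor subunit Gabrb1 (−0.78) was lower.

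Of 47 vesicle and release genes, Syn2, Syt12 (−1.15) and Syt6 (−0.52) were lower and Syn3, a further synapsin, was higher. Syn3 was at 6.32, 11.3, 12.5 and 9.89 CPM in Control-shRNA and at 16.9, 15.6, 20.6 and 23.3 CPM in Dnmt3a1-shRNA2, a log2 fold change of 0.93 with a standard error of 0.19. The 2 synapsins thus moved in opposite directions. In the postsynaptic density list, Dlg4 was lower and Camk2d higher (0.63) of 31. Of 49 synaptic adhesion genes, Cdh11 (−0.82), Tenm3 (−0.72) and Il1rapl1 (−0.55) were lower, and Ncam2 (0.62) and Ptprf (0.51) higher. By the adjusted p alone, 14 of the 49 were higher and 4 lower, against 1398 and 1411 of the 17222 genes tested. Positive values were found in 39 of the 49, and the median was 0.17. The 3 lower vesicle genes and the 3 lower adhesion genes all held the heptamer, and so did Camk2d, called higher. In all, 14 of the 47 vesicle genes and 16 of the 49 adhesion genes held it.

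Among 71 potassium channel genes, 4 were lower and 1 higher. Kcng2 was at −0.78, the small-conductance channel Kcnn1 at −0.68, Kcnc2, which supports fast spiking, at −0.65, Kcnk10 at −0.50 and Kcns2 at 0.54. Of 32 sodium, calcium and HCN channel genes, none was lower, and Scn3b (0.61), the pacemaker channel Hcn4 (0.53) and the L-type calcium channel Cacna1d (0.53) were higher. With library sizes alone, Hcn4, Cacna1d and Kcns2 were not called.

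**Figure D4:**
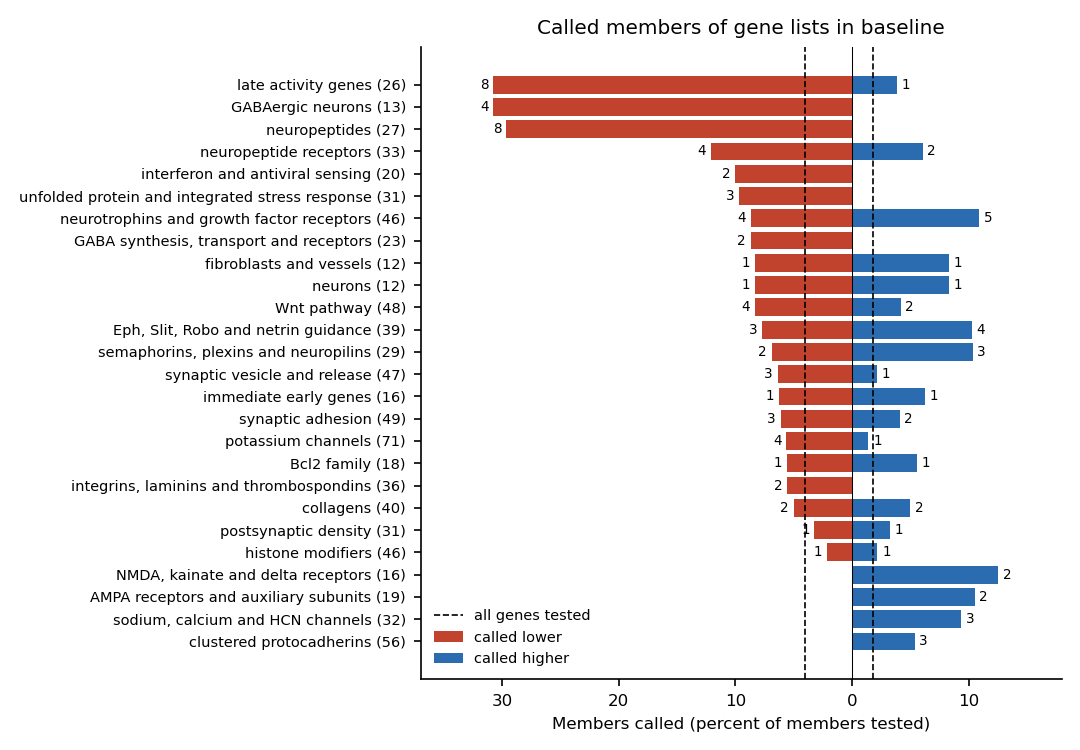
Members called lower (red, to the left) and higher (blue, to the right) as percent of the members tested, for the lists with at least 10 members tested and at least 2 called. Numbers at the bars are genes, numbers in brackets members tested, and dashed lines the shares among all genes, 4.07% lower and 1.76% higher. Late activity genes, GABAergic markers and neuropeptides reach furthest to the left, with 8 of 26, 4 of 13 and 8 of 27.

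Of the DNA methyltransferases, Dnmt3a was called and Dnmt1 and Dnmt3b were not. None of 10 demethylation genes was called. Classes of genes often silenced by methylation were counted next, against 1.76% called higher and 4.07% called lower among all genes. Of 11 germline genes tested, Dazl alone was called, at −0.98 and so lower in the knockdown, and leaving out any of 6 of the 8 libraries ended its call. Of 44 imprinted genes, Zim1 alone was called (0.50, adjusted p = 0.048, with overlap). With the replicate number as a block its log2 fold change was 0.47, under the fold limit.

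Of 56 clustered protocadherins, cell-surface proteins whose promoter choice involves DNA methylation, 3 were higher and none lower: Pcdhgc4 at 0.60, Pcdhga9 at 0.58 and Pcdhgb7 at 0.51. Only Pcdhga9 kept its call in each fit without 1 library, and none of the 3 kept it in every setting. By the adjusted p alone, 14 were higher and none lower, against 1398 higher and 1411 lower of the 17222 genes tested. The median of the 56 was 0.09, and it was −0.03 on log2(TPM + 1). Genes of some of the clusters, among them the 3 called, share exons, so reads can be divided between them and their values are uncertain.

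In the list of the unfolded protein and integrated stress responses, 3 of 31 were lower and none higher, and 26 had negative values, with a median of −0.16. Canx (calnexin), a chaperone of the endoplasmic reticulum, was at 454, 400, 434 and 471 CPM in Control-shRNA and at 248, 217, 250 and 252 CPM in Dnmt3a1-shRNA2, a log2 fold change of −0.86 (standard error 0.07). Pdia3, a disulfide isomerase that works with it, was at 201, 169, 189 and 210 CPM against 99.9, 89.2, 101 and 98.3 CPM, a log2 fold change of −0.99 with a standard error of 0.07. The mitochondrial folate enzyme Mthfd2 was also at −0.99. The sensor chaperone Hspa5 was at −0.21, Ddit3 at −0.33 and Atf4 at −0.05, and none of the 3 was called. Canx and Mthfd2 held GAAAGGA and Pdia3 did not, and 6 of the 31 held it in all.

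Lists of basal metabolism held no calls, or 1. All 13 mitochondrially encoded respiratory genes had positive values (median 0.33) and 71 of 77 cytosolic ribosomal protein genes did (median 0.13), but none reached the fold threshold with an adjusted p under 0.05. By the adjusted p alone, 23 ribosomal protein genes were higher and 2 lower, against 1398 higher and 1411 lower of the 17222 genes tested. None of the 13 mitochondrial genes passed. Neither of these medians changed sign with library sizes alone or on log2(TPM + 1). None of 79 nuclear respiratory chain genes was called, and Gpd2 was the only one of 28 glycolysis genes. None of 13 genes of small-RNA silencing was called, and of 20 interferon and antiviral genes Stat2 (−0.76) and Ifi27 (−0.66) were lower. Stat2 lost its call without Control-shRNA replicates 1 or 4 or Dnmt3a1-shRNA2 replicate 2.

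Markers of other cells the cultures could hold were compared as well. Astrocyte markers had a median log2 fold change of 0.40, with 9 of 10 positive, and their summed level was 276 to 449 TPM in Control-shRNA and 272 to 544 TPM in Dnmt3a1-shRNA2. Only S100b (0.82) was called. Gfap was at 75.8 ± 23.0 against 116 ± 34.7 CPM (SD, n = 4), not called. Microglial markers summed to 5.85 to 8.78 and 3.03 to 6.30 TPM, and Csf1r (−0.66) was lower. None of 8 oligodendrocyte lineage and none of 8 proliferation markers was called. Of 12 fibroblast and vessel markers, Kdr (−1.05) was lower and Pdgfrb (0.75) higher. S100b lost its call without Control-shRNA replicates 1 or 4 or Dnmt3a1-shRNA2 replicate 4, and Csf1r without Control-shRNA replicates 1 or 3 or Dnmt3a1-shRNA2 replicates 3 or 4.

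The calls were also counted by class of gene. Protein-coding genes were called higher in 1.75% and lower in 4.24%, and long non-coding RNAs in 2.15 and 3.31%. By gene length, the share called higher among protein-coding genes was 1.34, 1.27, 1.10, 2.10 and 2.93% from the shortest to the longest quintile, whereas the share called lower was 3.79 to 4.51% in all quintiles. The median length was 47.5 kb among the higher genes, 23.7 kb among the lower and 25.4 kb among the rest. By level, the share called lower was highest in the second quintile from the bottom, 7.08%, and 2.64% among the most abundant, and the share called higher was 1.10 to 2.21%. The spread within groups also differs with level, and its part in these shares was not tested.

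The same shRNA was also measured in 8 further libraries, from cultures given bicuculline, which share no library with the baseline comparison. Equal replicate numbers may stand for the same neuronal preparations in both conditions, and all groups shared the estimate of the spread. The 2 comparisons may therefore not be independent. There, 344 genes were higher (2.0%) and 671 lower (3.9%). Of the 303 genes higher in baseline, 144 (47.5%) were called higher with bicuculline too, which is 41.9% of those called there. Of the 701 lower ones, 415 (59.2%) were called lower, or 61.8% of those called there. None was called in the opposite direction, and 296 of 303 and 675 of 701 had the same sign. The median changes were 0.53 with bicuculline against 0.62 in baseline for the higher genes, and −0.63 against −0.73 for the lower ones, which were chosen on the baseline values. The share called lower with bicuculline went from 2.93% of genes without GAAAGGA to 8.50, 10.7 and 15.9% of those with 1, 2 and 3 or more matches.

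The size of the change was tested between the conditions by the interaction. No gene passed at an adjusted p under 0.05 with edgeR (smallest 0.147) or with voom and limma, and 852 genes (4.95%) had an unadjusted p under 0.05 in edgeR. DESeq2 called 17 genes, edgeR with the replicate number as a block 3 and edgeR without the filter on low counts 3. By p-value the first 5 were Map3k12 (−0.86 in baseline and −1.43 with bicuculline), Arpp21 (−0.94 and −0.14), Foxp1 (−0.51 and 0.04), Rspo3 (0.10 and −0.90) and Cc2d1a (−0.20 and −0.56). Dnmt3a itself stood at −2.81 and −2.85, and Mstn at 1.52 and 2.51.

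**Figure D5:**
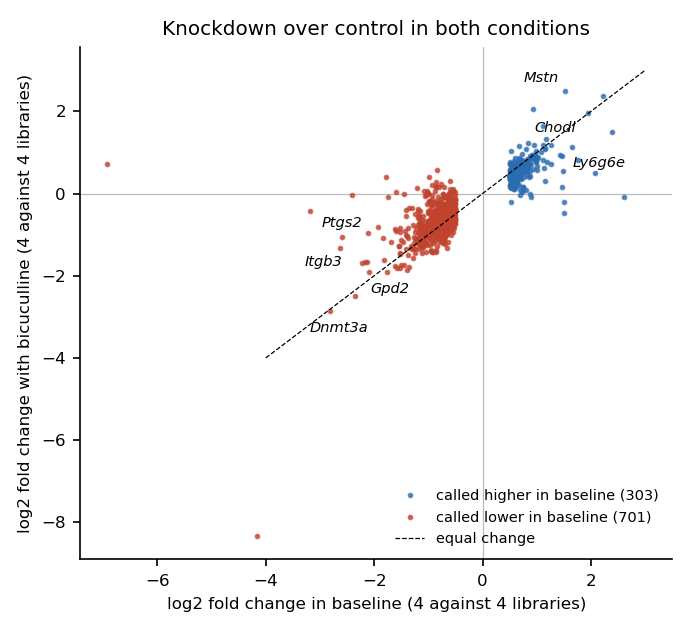
Log2 fold change of Dnmt3a1-shRNA2 over Control-shRNA with bicuculline (vertical axis) against that in baseline (horizontal axis) for the 303 genes called higher (blue) and the 701 called lower (red) in baseline, each from 4 against 4 separate libraries. The dashed line marks equal change. Of the 1004 genes, 971 lie in the same direction in both conditions. The outlying points at −6.92 in baseline and at −8.33 with bicuculline are the pseudogenes Gm2436 and Mpc1-ps, low in all groups and uncertain because reads may be shared with near-identical sequence; they were named after their values were seen.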

How the data were processed

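RNA of 16 libraries was sequenced, and the 8 baseline libraries were compared here. Per the labels, the authors trimmed paired-end reads with Trim Galore 0.6.4 and used kallisto with GRCm38.p6 transcripts. The authors deposited 1 estimated count per gene and library, not scaled for depth or length, and a TPM value per gene, scaled for transcript length and library total. Of 55385 identifiers, 55144 matched GENCODE release M21 without their version, and symbols, positions and 3′ UTRs were taken from it.

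The estimated counts were rounded, and edgeR 4.0.16 (R 4.3.3) was used for the test, after TMM scaling and edgeR's filter on low counts, by 1 quasi-likelihood model of the 4 groups of the series. Benjamini-Hochberg adjustment covered all 17222 genes. CPM values are TMM-scaled. The test was checked on simulated counts. No pair of baseline libraries of a group was alike within sampling noise.

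Members and gene lists were chosen with earlier results of these data known. Genes are named by a rule: the methyltransferases and genes named in the study, the 12 genes per direction with the largest change among called protein-coding or long non-coding genes of at least 1 CPM without overlap, the 6 most abundant called genes per direction, up to 4 called members per list with the largest change (all members where at most 5 were called), and the 5 smallest interaction p-values. A few genes that the rule names are not reported here. Further single genes of the lists were named after their values were seen. The 50 lists, 41 of pathways and 9 of markers, are described by counts and medians without a set test.

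The labels number the libraries of each group 1 to 4. Libraries of the 2 groups that carry the same number deviated together. Their correlation across genes (Pearson's r) was 0.204 to 0.355 in baseline, above 0.1 for each of the 4 pairs. Control-shRNA replicate 4 had a slightly higher r with Dnmt3a1-shRNA2 replicate 1 (0.216) than with replicate 4 (0.204), so its partner is uncertain. The numbers were taken to pair the libraries. The main fit, the counts of groups without overlap and the permutation tests did not use this pairing. The block for the number was an alternative. Other alternatives were voom with limma 3.58.1, DESeq2 1.42.0, DESeq2's size factors or library sizes only in edgeR, no filter or at least 10 counts in every library, only the 8 baseline libraries, limma on log2(TPM + 1) and log2(TPM + 0.1), no fold threshold or a threshold of 1, and each library left out. Promoter CpG content was not compared, since only 77.8% of the 14516 protein-coding genes tested had a promoter sequence, too few for the comparison.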

Additional observations from a re-analysis of the deposited data

Results flagged for a closer look

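For the 125 genes named by the rule, the 4 values of each group were searched for a library far from the other 3. Of 250 groups of 4, 10 had such a library (4.0%), where chance marks about 1 group in 20. In Control-shRNA, replicate 2 stood apart in 4 genes. It was low for Crhbp at 39.4 CPM against 48.6 to 50.3 CPM, for Pgm2l1 at 465 against 551 to 557 CPM and for Vgf at 393 against 489 to 508 CPM, and high for Sdc3 at 621 against 593 to 597 CPM. Control-shRNA replicate 1 was high for Csf1r, at 3.98 against 2.38 to 2.62 CPM. In Dnmt3a1-shRNA2, replicate 2 was low in 4 genes, for Cdh11 at 50.8 against 58.9 to 60.5 CPM, for Tenm3 at 70.4 against 94.2 to 98.5 CPM, for Ncam2 at 111 against 169 to 178 CPM and for Canx at 217 against 248 to 252 CPM. Dnmt3a1-shRNA2 replicate 3 was high for Npbwr1, at 2.89 against 1.65 to 1.73 CPM. All of these genes except Ncam2 had no overlap between the groups. In edgeR's fit without a block, no gene's change differed between baseline and bicuculline at an adjusted p under 0.05, whereas 3 genes did with the replicate block, 3 without the filter on low counts and 17 in DESeq2.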

How the results depend on the processing

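Dnmt3a kept its call under every alternative run, between −2.89 and −2.76, and between −2.85 and −2.76 without 1 library. The number of genes called was 2809 without a fold threshold (1398 higher, 1411 lower) and 175 with a threshold of 1 (30 higher, 145 lower). Genes called higher numbered 159 with library sizes only, 75 on log2(TPM + 1) and 99 on log2(TPM + 0.1), where 960, 748 and 888 were lower. These scalings move the centre of all genes downwards, to a median of −0.08 on log2(TPM + 1). The other alternatives left the 3 counts within 1.5 times. Without 1 library, 827 to 1122 genes were called, 246 to 368 higher and 580 to 754 lower.

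With the replicate block, 1284 genes were called, 417 higher and 867 lower, and 999 of the 1004 calls were the same. Among the named genes the block ended the calls of Dpysl3 and Zim1 and added Cacng5 and Trpc6, and it changed no other named call. The interaction called 0 genes in edgeR and without any 1 library, 3 with the block, 3 without a filter and 17 in DESeq2, and the cause was not tested. Of 117 named genes called, 62 kept their call in every setting, 12 of 47 higher and 50 of 70 lower. None changed sign. Values near 0 did: Dnmt1 was at −0.060 with library sizes only, −0.10 on both TPM scales and between −0.011 and 0.049 without 1 library. Dnmt3b was at −0.0013 with voom, −0.065 with library sizes only and between −0.20 and 0.13 without 1 library.

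The share of lower genes with GAAAGGA, for which the alternatives were added after the data were seen, was 41.4 to 47.3% in the other fits and 42.5 to 51.5% without 1 library. Depth limits the low genes: genes under 1 CPM such as Dnmt3b rest on few reads. Medians of 23 of the 50 lists changed sign with library sizes or TPM. The single construct and its target letters, shared by all knockdown libraries, cannot be told apart from the loss of Dnmt3a1 within this series.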

Other observations

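Further lists held single calls. Of 40 collagen genes, Col26a1 (−0.73) and Col11a2 (−0.74) were lower and Col11a1 (0.69) and Col6a5 (0.63) higher, and of these only Col26a1 kept its call in each fit without 1 library. Of 36 integrin, laminin and thrombospondin genes, Itga4 (−0.58), the integrin α4 subunit, fell beside Itgb3. Of 33 genes of cholesterol and fatty acid synthesis, Insig1, a feedback regulator of sterol synthesis, was higher, at 110 to 158 CPM in Control-shRNA and 178 to 251 CPM in Dnmt3a1-shRNA2, a log2 fold change of 0.68 (standard error 0.13). Of 24 p53 targets and DNA damage genes, Ei24 was lower (−0.74), and of 18 Bcl2 family genes Hrk was higher and Bok lower. Bok, at −0.50, was not called by DESeq2.

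Of 29 transcription factors of excitatory identity, Nfib was higher (0.68), with a call that was lost without Dnmt3a1-shRNA2 replicate 1. By the adjusted p alone, 11 of the 29 were higher and 1 lower, against 1398 and 1411 of the 17222 genes tested. Positive values were found in 24 of the 29, with a median of 0.20. Of 19 transcription factors of interneurons, Dlx5 was lower (−0.98). Dlx5, a homeobox factor of GABAergic neurons, was at 9.55 to 13.4 CPM in Control-shRNA and 5.02 to 6.67 CPM in Dnmt3a1-shRNA2. Of 46 histone modifiers, Setdb2 was lower (−0.81) and Setd7 higher (0.52). Among 12 general neuron markers, Nefh was lower (−0.70) and Tubb3 higher, and the summed level was 7248 to 7923 TPM in Control-shRNA and 7807 to 8572 TPM in Dnmt3a1-shRNA2. None of 9 excitatory neuron markers was called, and of 7 dentate granule neuron markers C1ql3 was higher (0.54). Setd7 and C1ql3 were not called with library sizes only. Nefh was no longer called when any of 6 of the 8 libraries was left out. Among Hox genes, 1 passed the filter on low counts and was not called.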
